A study of Mus musculus with 18 samples.

Results

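The genes described here fold proteins in the endoplasmic reticulum (ER) or belong to the unfolded protein response, the programme that raises them when unfolded protein builds up there. They were chosen by symbol, from a list of ER chaperones, parts of ER-associated degradation, stress sensors and their partners, and 39 of the 19545 genes in the deposited kidney table matched. By role they comprise 13 chaperones and cofactors, 7 genes of oxidative folding, 9 of ER-associated degradation, 6 sensors and regulators, and 4 of translocation and export. The members were chosen with earlier results of these data known.

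Proteins entering the ER are held by the chaperone BiP (Hspa5) and its partners, receive their disulfide bonds from protein disulfide isomerases, and are sent back to the cytosol for destruction by the ER-associated degradation machinery if they fail to fold. Sensors in the ER membrane, IRE1 (Ern1), ATF6 (Atf6) and PERK (Eif2ak3), detect the load. Activated IRE1 splices the messenger RNA of Xbp1, cleaved ATF6 is itself a transcription factor, and PERK slows translation and favours ATF4. In the kidney, the pathway is studied in tubular cells and podocytes under stress.

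Kidney RNA was sequenced from ICR mice, an outbred stock, at 10 weeks of age, in 18 libraries that formed 6 groups of 3. The HS_AOS_FMT, HS_control_FMT, HS_AOS and HS groups all had a high fat diet and STZ (streptozotocin, a toxin of the pancreatic beta cell). HS_AOS_FMT kidneys came from the group whose FMT (faecal microbiota transplantation) is labelled with AOS at 10 mg/kg, and HS_control_FMT kidneys from the group whose FMT is labelled control. HS_AOS mice were given AOS at 10 mg/kg with diet and STZ, HS mice had diet and STZ with no further treatment named, AOS mice were given AOS at 10 mg/kg alone, and control mice carry no treatment in their labels. AOS is not spelled out by the labels, which name no donor of the transplants. They also leave it unsaid whether each library is a mouse of its own. The spread behind every p-value is that among libraries of the same group, pooled over the groups in the fit, and may be technical. The series asks how FMT affects a kidney damaged by diet and STZ.

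Levels are the authors' FPKM (fragments per kilobase of transcript, scaled to library size), which allow levels of different genes to be set side by side per length. Between 15773 and 17270 genes were above 0 in a library, read counts are not given, and depth is therefore unknown. All 10 proximal tubule markers, of the segment that makes up most of the cortex, were detected in every group. Control 3 stood apart, with 7 tubular injury genes at a summed 2986 FPKM, where the other 17 libraries had 467 to 794 FPKM. Of the proximal tubule markers, control 3 lay below all other libraries for Kap, Lrp2, Slc34a1, Slc22a6 and Slc7a13 and within their range for Cubn, Slc5a2, Slc5a12, Slc22a8 and Aqp1. Kap, an androgen-responsive kidney gene that makes up most of the list's summed level, had 15798 FPKM in control 3. Transcripts of adrenal cortex (8 genes, all detected) summed to 922 FPKM in control 3, 462 FPKM in HS 3, 368 FPKM in HS_AOS_FMT 2 and 61.5 FPKM in HS_AOS_FMT 3, and to at most 7.5 FPKM in the other 14 libraries, HS_control_FMT at 1.12 to 1.45 FPKM among them. In whole kidney, fewer cells of a type and less RNA per cell cannot be told apart.

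Several members hold, just upstream of their start, letters that ATF6 and XBP1 are known to bind. RefSeq promoters (GRCm38.p6, which has the coordinates of mm10) were matched for 33 of the 39 members, and the 250 bases before the start were searched on both strands. The ER stress response element ERSE, which is CCAAT and CCACG with 9 bases of any kind between them, was present in 10 of the 33 members (30.3%), against 0.113% of all 32851 promoters of that length and 0.174% of the 9785 tested genes with a promoter. The related ERSE-II, which is ATTGG and CCACG with 1 base of any kind between them, was found upstream of Herpud1 alone among members, and in 0.0304% of all promoters. The UPRE core TGACGTGG was found upstream of Sec24d alone, against 0.563% of all promoters and 0.869% of tested genes, and the ERSE half-site CCACG, which overlaps ERSE and ERSE-II, upstream of 25 of 33 members (75.8%), against 28.3% of all promoters and 45.5% of tested genes. A match is a description of the letters in this window and not evidence of a bound site. The 10 members with ERSE were Hspa5, Hsp90b1 (with 2 copies), Calr, Canx, Creld2, Dnajc3, Pdia6, Ero1lb, Syvn1 and Derl3.

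To show members with and without the element, whether or not their level changed, 7 upstream stretches, chosen with those levels known, are printed 5′ to 3′ on the gene's strand, each ending at the base before the annotated start, with the fixed letters of ERSE or ERSE-II in capitals. Hspa5 (chr2:34771840-34772089, plus strand), Creld2 (chr15:88819396-88819645, plus strand) and Derl3 (chr10:75893148-75893397, plus strand) carry ERSE, which runs in the reverse direction in Creld2 and Derl3. Herpud1 (chr8:94386179-94386428, plus strand) carries ERSE-II, Calr (chr8:84846932-84847181, minus strand) carries ERSE in the reverse direction, while Dnajb9 (chr12:44210069-44210318, minus strand) and Sdf2l1 (chr16:17132384-17132633, minus strand) hold neither. Of these genes Calr, which holds the element, passed in no comparison that holds HS_control_FMT with all 18 libraries in the fit, and Sdf2l1, with neither motif, had the greatest fall of the members in HS_AOS_FMT vs HS_control_FMT.
Hspa5: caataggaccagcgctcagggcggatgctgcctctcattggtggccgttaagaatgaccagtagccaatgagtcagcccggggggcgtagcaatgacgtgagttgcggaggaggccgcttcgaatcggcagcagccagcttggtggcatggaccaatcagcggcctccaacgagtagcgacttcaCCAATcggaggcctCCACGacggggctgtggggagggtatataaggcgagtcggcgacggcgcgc
Creld2: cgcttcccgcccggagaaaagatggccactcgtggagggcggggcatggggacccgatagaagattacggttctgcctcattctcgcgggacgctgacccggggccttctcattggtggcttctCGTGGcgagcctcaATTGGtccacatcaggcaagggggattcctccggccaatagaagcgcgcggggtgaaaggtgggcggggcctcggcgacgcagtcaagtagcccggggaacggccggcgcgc
Derl3: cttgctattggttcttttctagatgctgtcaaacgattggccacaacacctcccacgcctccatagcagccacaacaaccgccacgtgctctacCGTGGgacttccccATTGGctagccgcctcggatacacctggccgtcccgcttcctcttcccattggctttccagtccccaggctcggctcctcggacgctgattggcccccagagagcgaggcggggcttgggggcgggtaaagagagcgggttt
Herpud1: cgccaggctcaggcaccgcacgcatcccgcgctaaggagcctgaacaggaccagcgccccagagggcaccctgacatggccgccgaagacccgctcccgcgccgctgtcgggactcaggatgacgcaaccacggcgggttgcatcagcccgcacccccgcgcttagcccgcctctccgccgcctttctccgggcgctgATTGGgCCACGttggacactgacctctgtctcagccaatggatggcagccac
Calr: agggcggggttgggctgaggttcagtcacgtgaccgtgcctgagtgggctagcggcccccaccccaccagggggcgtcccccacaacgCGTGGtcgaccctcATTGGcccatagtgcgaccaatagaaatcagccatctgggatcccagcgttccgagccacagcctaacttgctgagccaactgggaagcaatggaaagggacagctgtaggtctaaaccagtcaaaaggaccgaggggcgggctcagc
Dnajb9: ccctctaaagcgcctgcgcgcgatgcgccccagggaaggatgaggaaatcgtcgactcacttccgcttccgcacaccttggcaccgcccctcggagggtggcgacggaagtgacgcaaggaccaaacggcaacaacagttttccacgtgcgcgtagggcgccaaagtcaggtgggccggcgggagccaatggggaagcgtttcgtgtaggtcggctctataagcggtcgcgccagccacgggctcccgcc
Sdf2l1: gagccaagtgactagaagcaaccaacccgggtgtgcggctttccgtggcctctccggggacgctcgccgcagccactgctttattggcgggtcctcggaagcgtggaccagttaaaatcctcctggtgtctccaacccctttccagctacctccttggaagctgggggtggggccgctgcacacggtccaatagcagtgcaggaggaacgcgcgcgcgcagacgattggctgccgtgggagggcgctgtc

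As levels, the members spanned the lectin chaperone Calr, at a mean of 548 FPKM over the 18 libraries, and the derlin Derl3, at 1.80 FPKM. Calr, P4hb, Pdia3, Hspa5 and Hsp90b1 were the 5 highest, each above 250 FPKM and at a percentile of 96.8 or higher among the tested genes. The sensors stood low in that order, Eif2ak3 at 8.52, Atf6 at 7.18 and Ern1 at 2.63 FPKM. All 39 members passed the filter of at least 1 FPKM in at least 3 libraries.

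HS_control_FMT kidneys stood apart from every other group in this pathway. For 16 of the 39 members (41.0%), all 3 HS_control_FMT libraries lay above all 15 other libraries, a pattern that 1.08% of the 12385 tested genes showed. Those 16 were 8 chaperones and cofactors (Hspa5, Hsp90b1, Hyou1, Creld2, Sdf2l1, Manf, Dnajb9, Dnajb11), the disulfide isomerases Pdia4 and Pdia6, the degradation genes Herpud1, Sel1l, Syvn1, Derl3 and Edem1, and the transcription factor Xbp1. Crebrf was the one member for which the 3 libraries lay below all others, against 3.22% of tested genes. The median member lay 0.24, 0.34 and 0.25 above the control mean on the log2(FPKM + 1) scale in HS_control_FMT 1, 2 and 3, against -0.21 to 0.17 in the other 15 libraries.

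**Figure D1:**
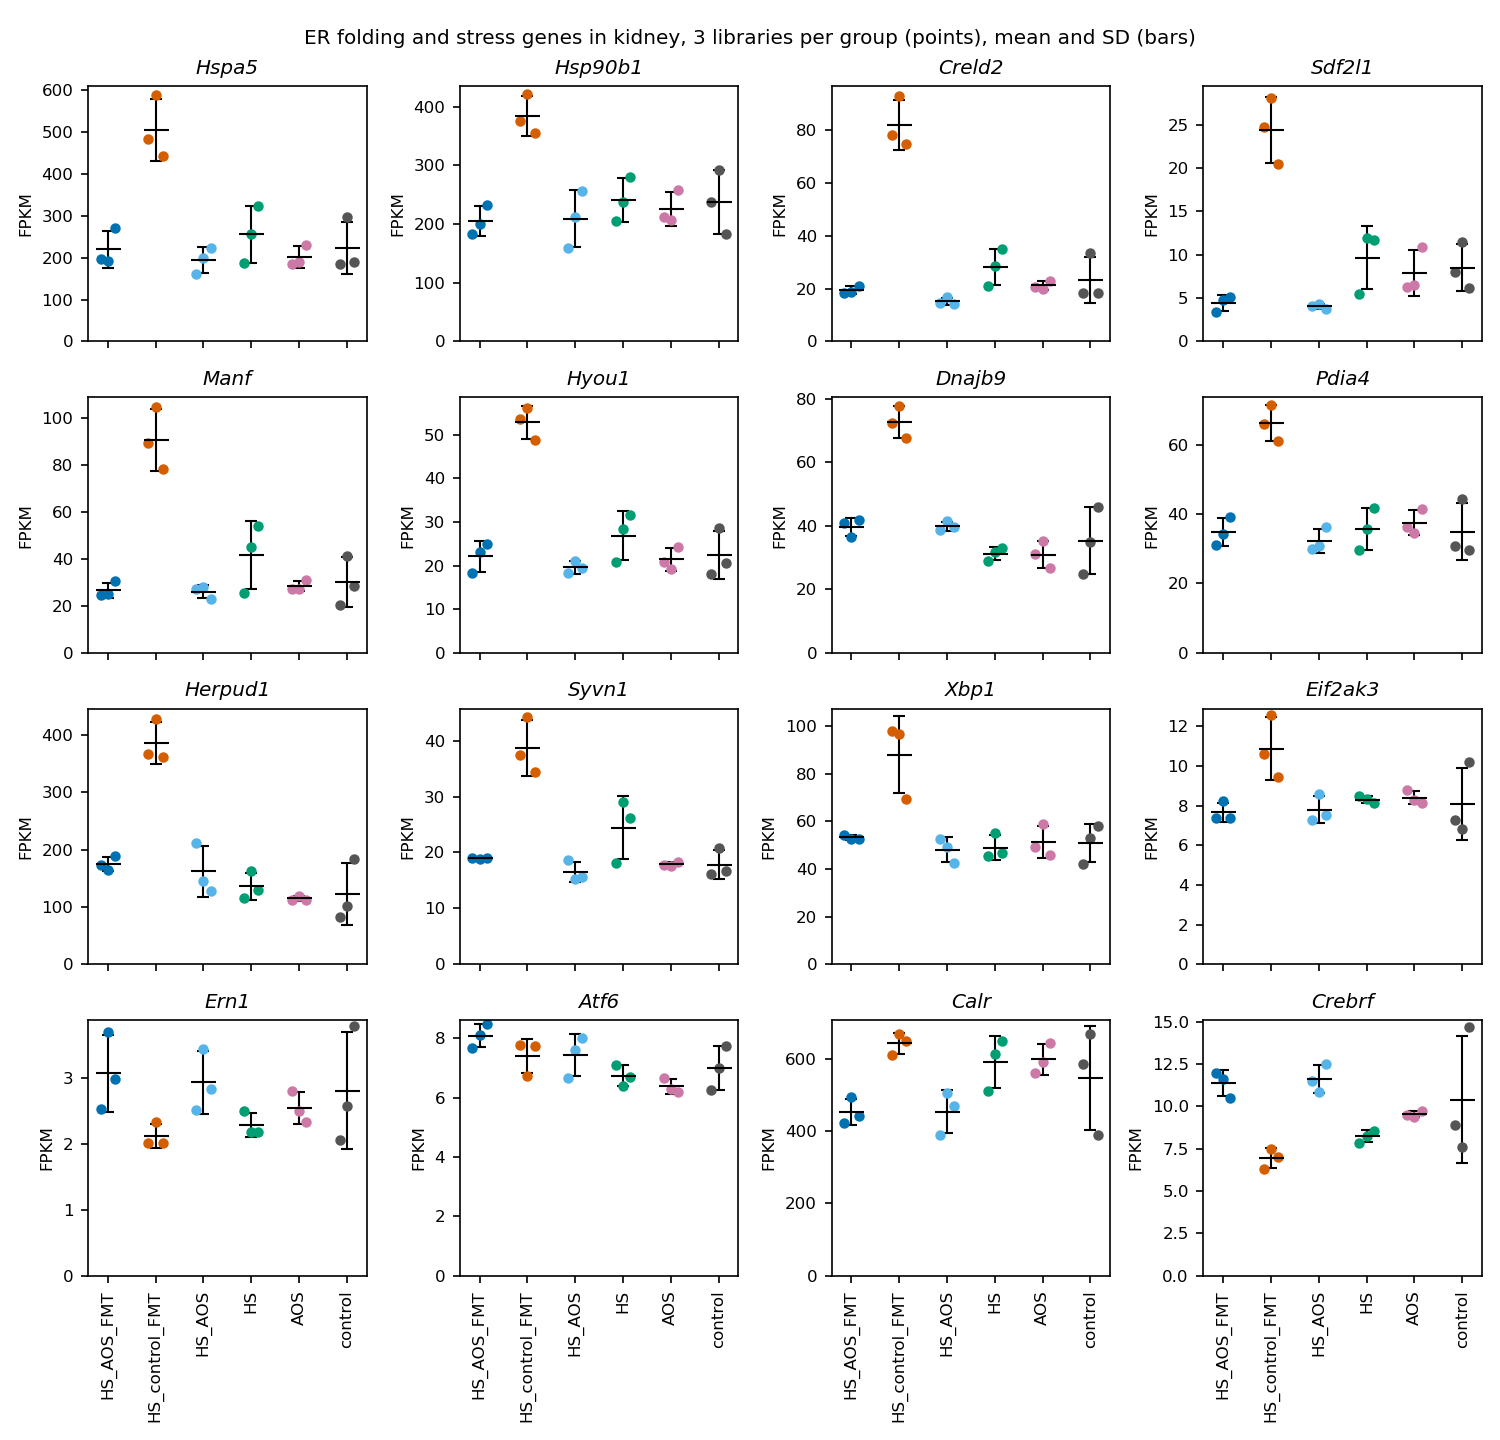
FPKM (vertical axes, from 0) of 16 members in the 3 libraries of each of 6 groups, with points for libraries and bars for the mean and SD. HS_control_FMT points lie above all others for Hspa5, Hsp90b1, Creld2, Sdf2l1, Manf, Hyou1, Dnajb9, Pdia4, Herpud1, Syvn1 and Xbp1, and below all others for Crebrf. For Ern1, Atf6, Eif2ak3 and Calr they overlap the points of another group.

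The comparison of HS_control_FMT with HS sets the group of the control-labelled transplant against that with diet and STZ and no further treatment named. Of the 39 members, 10 rose and none fell, as called by limma on log2(FPKM + 1) at an adjusted p under 0.05, the threshold used throughout. That is 25.6% of the members, where 0.751% of all tested genes were called, 0.46% as higher and 0.291% as lower (57 and 36 genes). With quantile normalization the split over all genes was 105 higher and 34 lower, and with each library's GC and length trend removed it was 135 and 59. The 10 comprised 6 of 13 chaperones and cofactors, 1 of 7 oxidative folding genes, 2 of 9 degradation genes, 1 of 6 sensors and regulators, and 0 of 4 translocation and export genes. The median member was 0.27 higher on the log2 scale, while the median of all tested genes was -0.08.

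Among the chaperones, Creld2, an ER-resident protein induced by ER stress, changed most. It had 78.2, 92.7 and 74.8 FPKM in HS_control_FMT kidneys, against 21.1, 28.5 and 34.8 FPKM in HS kidneys. In the remaining groups it had 18.4, 18.8 and 21.0 FPKM in HS_AOS_FMT, 14.5, 16.8 and 14.3 FPKM in HS_AOS, 20.6, 20.0 and 22.9 FPKM in AOS and 18.5, 33.5 and 18.2 FPKM in control kidneys. The HS_control_FMT libraries were far above all others, and the group means were 81.9 ± 9.5 FPKM and 28.1 ± 6.84 FPKM in HS_control_FMT and HS kidneys (SD, n = 3 each). The log2 change was 1.53 (SE 0.20, limma adjusted p = 0.00325). Sdf2l1, which works with BiP and its J-protein Dnajb11, had 24.8, 28.1 and 20.5 FPKM in HS_control_FMT kidneys and 5.43, 11.9 and 11.7 FPKM in HS kidneys. It had 3.42, 4.78 and 5.07 FPKM in HS_AOS_FMT, 4.04, 4.28 and 3.79 FPKM in HS_AOS, 6.28, 6.49 and 10.9 FPKM in AOS and 8.0, 11.4 and 6.13 FPKM in control kidneys. HS 1 was low at a level near the AOS libraries, while HS 2 and HS 3 were the highest outside HS_control_FMT, and the change was 1.31 (SE 0.27, limma adjusted p = 0.0436).

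Manf, a secreted neurotrophic factor retained by the ER, had 89.6, 105 and 78.3 FPKM in HS_control_FMT kidneys, against 25.6, 45.2 and 54.0 FPKM in HS kidneys. Its levels were 24.5, 24.8 and 30.4 FPKM in HS_AOS_FMT, 27.3, 28.0 and 22.9 FPKM in HS_AOS, 27.3, 27.4 and 31.1 FPKM in AOS and 20.6, 41.4 and 28.6 FPKM in control kidneys. The HS libraries spread widely, yet none reached HS_control_FMT, and the log2 change was 1.16 (SE 0.24, limma adjusted p = 0.0449). Hspa5 had 483, 589 and 444 FPKM in HS_control_FMT kidneys, against 187, 256 and 324 FPKM in HS kidneys. It stood at 196, 193 and 270.4 FPKM in HS_AOS_FMT, 162, 199 and 224 FPKM in HS_AOS, 184, 190.1 and 231 FPKM in AOS and 185, 296 and 189 FPKM in control kidneys. BiP messenger RNA was highest in the 3 HS_control_FMT libraries, at 505 ± 74.9 FPKM against 256 ± 68.8 FPKM in HS (SD, n = 3 each). The ratio of means was 1.98, and the log2 change of 1.01 (SE 0.22) passed narrowly, at a limma adjusted p of 0.0491.

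Hyou1, the exchange factor that recharges BiP with nucleotide, had 53.6, 56.1 and 48.7 FPKM in HS_control_FMT kidneys, against 20.8, 28.3 and 31.6 FPKM in HS kidneys. Elsewhere it had 18.2, 23.1 and 24.9 FPKM in HS_AOS_FMT, 18.2, 21.1 and 19.4 FPKM in HS_AOS, 20.8, 19.2 and 24.2 FPKM in AOS and 17.9, 28.5 and 20.7 FPKM in control kidneys. The lowest HS_control_FMT library was far above HS 3, the highest of the others, and the log2 change was 0.97 (SE 0.17, limma adjusted p = 0.0200). Dnajb9, a J-protein that keeps BiP on IRE1, had 72.4, 77.8 and 67.8 FPKM in HS_control_FMT kidneys, against 28.9, 31.9 and 33.0 FPKM in HS kidneys. It had 40.8, 36.5 and 41.8 FPKM in HS_AOS_FMT, 38.5, 41.4 and 39.6 FPKM in HS_AOS, 31.0, 35.2 and 26.7 FPKM in AOS and 24.8, 35.0 and 46.0 FPKM in control kidneys. Its HS libraries were tight, the group means were 72.7 ± 5.0 FPKM and 31.3 ± 2.09 FPKM in HS_control_FMT and HS kidneys, and the log2 change was 1.19 (SE 0.16, limma adjusted p = 0.00325).

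The other 7 chaperones and cofactors did not pass in this comparison. Hsp90b1 (GRP94), the ER form of Hsp90, had 376, 422 and 355 FPKM in HS_control_FMT kidneys, against 206, 238 and 280.3 FPKM in HS kidneys, with no overlap. It had 183, 201 and 233 FPKM in HS_AOS_FMT, 159, 211 and 256 FPKM in HS_AOS, 212, 207 and 259 FPKM in AOS and 238, 292 and 184 FPKM in control kidneys, and its log2 change of 0.68 had a limma adjusted p of 0.105. Dnajb11 (ERdj3), which delivers clients to BiP, had 79.2, 91.7 and 84.9 FPKM in HS_control_FMT kidneys, against 54.1, 61.8 and 75.5 FPKM in HS kidneys, a change of 0.42 (limma adjusted p = 0.171). In the remaining groups Dnajb11 had 55.9, 52.7 and 61.3 FPKM in HS_AOS_FMT, 46.0, 56.4 and 57.5 FPKM in HS_AOS, 59.0, 59.9 and 66.0 FPKM in AOS and 59.3, 67.5 and 46.5 FPKM in control kidneys. For both genes HS 3 was the HS library nearest to HS_control_FMT. Of the lectin chaperones that hold glycoproteins, Calr differed by 0.13 (95% interval -0.22 to 0.47) and Canx by 0.27 (0.01 to 0.53). Dnajc3, a J-protein that also restrains PERK, differed by 0.41 (0.15 to 0.67). Mydgf, a secreted factor with an ER retention signal, differed by -0.05 (-0.22 to 0.12), and Sil1, another exchange factor for BiP, by -0.25 (-0.45 to -0.04).

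Oxidative folding was led by Pdia4 (ERp72), a disulfide isomerase. Pdia4 had 65.9, 71.4 and 61.0 FPKM in HS_control_FMT kidneys, against 29.7, 35.6 and 41.6 FPKM in HS kidneys. It had 31.1, 34.4 and 39.1 FPKM in HS_AOS_FMT, 29.9, 30.7 and 36.2 FPKM in HS_AOS, 36.4, 34.5 and 41.6 FPKM in AOS and 30.6, 44.5 and 29.8 FPKM in control kidneys. The 15 libraries outside HS_control_FMT reached at most 44.5 FPKM, in control 2, and the log2 change was 0.88 (SE 0.15, limma adjusted p = 0.0187). Pdia6 (P5), a related isomerase, had 137, 150.1 and 136 FPKM in HS_control_FMT kidneys, against 93.3, 87.7 and 123 FPKM in HS kidneys, a change of 0.49 that did not pass (limma adjusted p = 0.189). Elsewhere Pdia6 had 81.8, 83.3 and 84.2 FPKM in HS_AOS_FMT, 69.2, 84.2 and 104 FPKM in HS_AOS, 103, 94.6 and 111 FPKM in AOS and 109, 118 and 75.2 FPKM in control kidneys. HS 3 and control 2 came closest to the HS_control_FMT libraries. Pdia3 (ERp57), the partner of the lectin chaperones, differed by 0.32 (95% interval 0.03 to 0.61) and the oxidase Ero1lb by 0.27 (0.06 to 0.48), neither of which passed. P4hb, the archetypal disulfide isomerase and the second most abundant member, differed by 0.08 (-0.11 to 0.26), Erp44, which retains the oxidases, by 0.06 (-0.15 to 0.28), and the oxidase Ero1l by -0.14 (-0.48 to 0.21).

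In ER-associated degradation, Herpud1, a scaffold of the degradation complex and a well-known stress-induced gene, had 366, 427 and 362 FPKM in HS_control_FMT kidneys, against 116, 162 and 129 FPKM in HS kidneys. It had 173, 164 and 188 FPKM in HS_AOS_FMT, 212, 145 and 128 FPKM in HS_AOS, 113, 119 and 112 FPKM in AOS and 81.7, 101 and 184 FPKM in control kidneys. HS_AOS 1 was the highest of the 15 libraries outside HS_control_FMT and still far below it, and the log2 change was 1.51 (SE 0.24, limma adjusted p = 0.0108). Syvn1 (HRD1), the ubiquitin ligase of the complex, had 37.5, 44.2 and 34.3 FPKM in HS_control_FMT kidneys, against 18.2, 29.0 and 26.2 FPKM in HS kidneys. It had 19.1, 18.8 and 19.0 FPKM in HS_AOS_FMT, 18.7, 15.3 and 15.6 FPKM in HS_AOS, 17.8, 17.6 and 18.3 FPKM in AOS and 16.1, 20.7 and 16.7 FPKM in control kidneys. HS 2 and HS 3 lay between HS_control_FMT and the remaining libraries, and the log2 change was 0.66 (SE 0.14, limma adjusted p = 0.0491). Derl3, a derlin of the retrotranslocation channel, was scarce, at 3.63, 7.24 and 4.08 FPKM in HS_control_FMT kidneys, against 1.09, 2.08 and 1.84 FPKM in HS kidneys. In the remaining groups Derl3 had 1.31, 1.28 and 0.540 FPKM in HS_AOS_FMT, 0.520, 0.920 and 1.05 FPKM in HS_AOS, 1.04, 0.950 and 1.34 FPKM in AOS and 0.430, 1.74 and 1.29 FPKM in control kidneys. Its change of 1.14 missed the threshold (limma adjusted p = 0.0611), and a pseudocount of 1 understates a change at so low a level. Derl3 did pass after quantile normalization, with a replicate block, with the GC and length trend removed, with both of these together, and in a fit without control 3 (limma adjusted p between 0.0135 and 0.0483). Sel1l, the adaptor of Syvn1, differed by 0.57 (limma adjusted p = 0.0997) and the mannosidase-like Edem1 by 0.50 (limma adjusted p = 0.200), with no overlap between the groups for either. Both passed in the fit without control 3 (limma adjusted p = 0.0314 for Sel1l and 0.0166 for Edem1). Derl1, Derl2, Edem2 and the lectin Os9 differed by 0.01, 0.16, -0.10 and -0.05, within overlapping ranges.

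Among sensors and regulators, Xbp1 rose, and the sensors Ern1, Atf6 and Eif2ak3 did not pass. Xbp1, counted here as a gene, so that its spliced and unspliced forms are not told apart, had 97.9, 96.9 and 69.5 FPKM in HS_control_FMT kidneys, against 45.5, 55 and 46.6 FPKM in HS kidneys. It had 54.3, 52.7 and 52.8 FPKM in HS_AOS_FMT, 52.5, 49.4 and 42.5 FPKM in HS_AOS, 49.1, 58.8 and 45.8 FPKM in AOS and 42.3, 53.0 and 58.0 FPKM in control kidneys. HS_control_FMT 3 was the lowest of its group and still above all other libraries, and the log2 change was 0.82 (SE 0.14, limma adjusted p = 0.0200). Eif2ak3 (PERK) had 10.6, 12.6 and 9.46 FPKM in HS_control_FMT kidneys, against 8.46, 8.32 and 8.11 FPKM in HS kidneys, a change of 0.34 (limma adjusted p = 0.205) that passed after quantile normalization (0.0292) and with the GC and length trend removed, alone (0.024) or with a replicate block (0.0367). It had 7.37, 8.21 and 7.37 FPKM in HS_AOS_FMT, 7.26, 8.56 and 7.54 FPKM in HS_AOS, 8.76, 8.30 and 8.15 FPKM in AOS and 7.28, 6.80 and 10.2 FPKM in control kidneys. The HS_control_FMT libraries lay above the HS ones, and control 3 lay among them. Ern1 (IRE1), the kinase and RNase that splices Xbp1, had 2.02, 2.33 and 2.01 FPKM in HS_control_FMT kidneys, against 2.50, 2.18 and 2.18 FPKM in HS kidneys, a change of -0.08 (95% interval -0.40 to 0.25). In the remaining groups Ern1 had 2.54, 3.70 and 2.99 FPKM in HS_AOS_FMT, 2.52, 3.45 and 2.84 FPKM in HS_AOS, 2.81, 2.50 and 2.33 FPKM in AOS and 2.06, 2.58 and 3.79 FPKM in control kidneys. Its HS_control_FMT level was thus the lowest group mean. The HS_control_FMT libraries lay below all HS_AOS_FMT and HS_AOS libraries. They overlapped those of HS and control and met those of AOS at 2.33 FPKM.

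Atf6 had 7.77, 6.75 and 7.73 FPKM in HS_control_FMT kidneys, against 7.12, 6.40 and 6.71 FPKM in HS kidneys, a change of 0.12 (95% interval -0.07 to 0.31). In the remaining groups it had 7.68, 8.13 and 8.48 FPKM in HS_AOS_FMT, 6.66, 7.62 and 8.03 FPKM in HS_AOS, 6.65, 6.29 and 6.20 FPKM in AOS and 6.27, 7.0 and 7.73 FPKM in control kidneys, so that all 18 libraries lay within 6.20 to 8.48 FPKM. Crebrf, a regulator of the transcription factor CREB3, ran the other way, at 6.32, 7.49 and 6.99 FPKM in HS_control_FMT kidneys, against 7.84, 8.26 and 8.56 FPKM in HS kidneys. It had 12, 11.6 and 10.5 FPKM in HS_AOS_FMT, 11.5, 10.8 and 12.5 FPKM in HS_AOS, 9.5, 9.36 and 9.72 FPKM in AOS and 8.91, 7.60 and 14.7 FPKM in control kidneys, and its change of -0.22 did not pass (limma adjusted p = 0.514). The ER membrane protein Wfs1 differed by -0.28 (95% interval -0.63 to 0.07). The translocon subunits Sec61a1 and Sec61b, the translocon-associated Ssr1 and the COPII coat protein Sec24d differed by 0.06, -0.09, 0.03 and 0.06, all with overlapping groups.

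**Figure D2:**
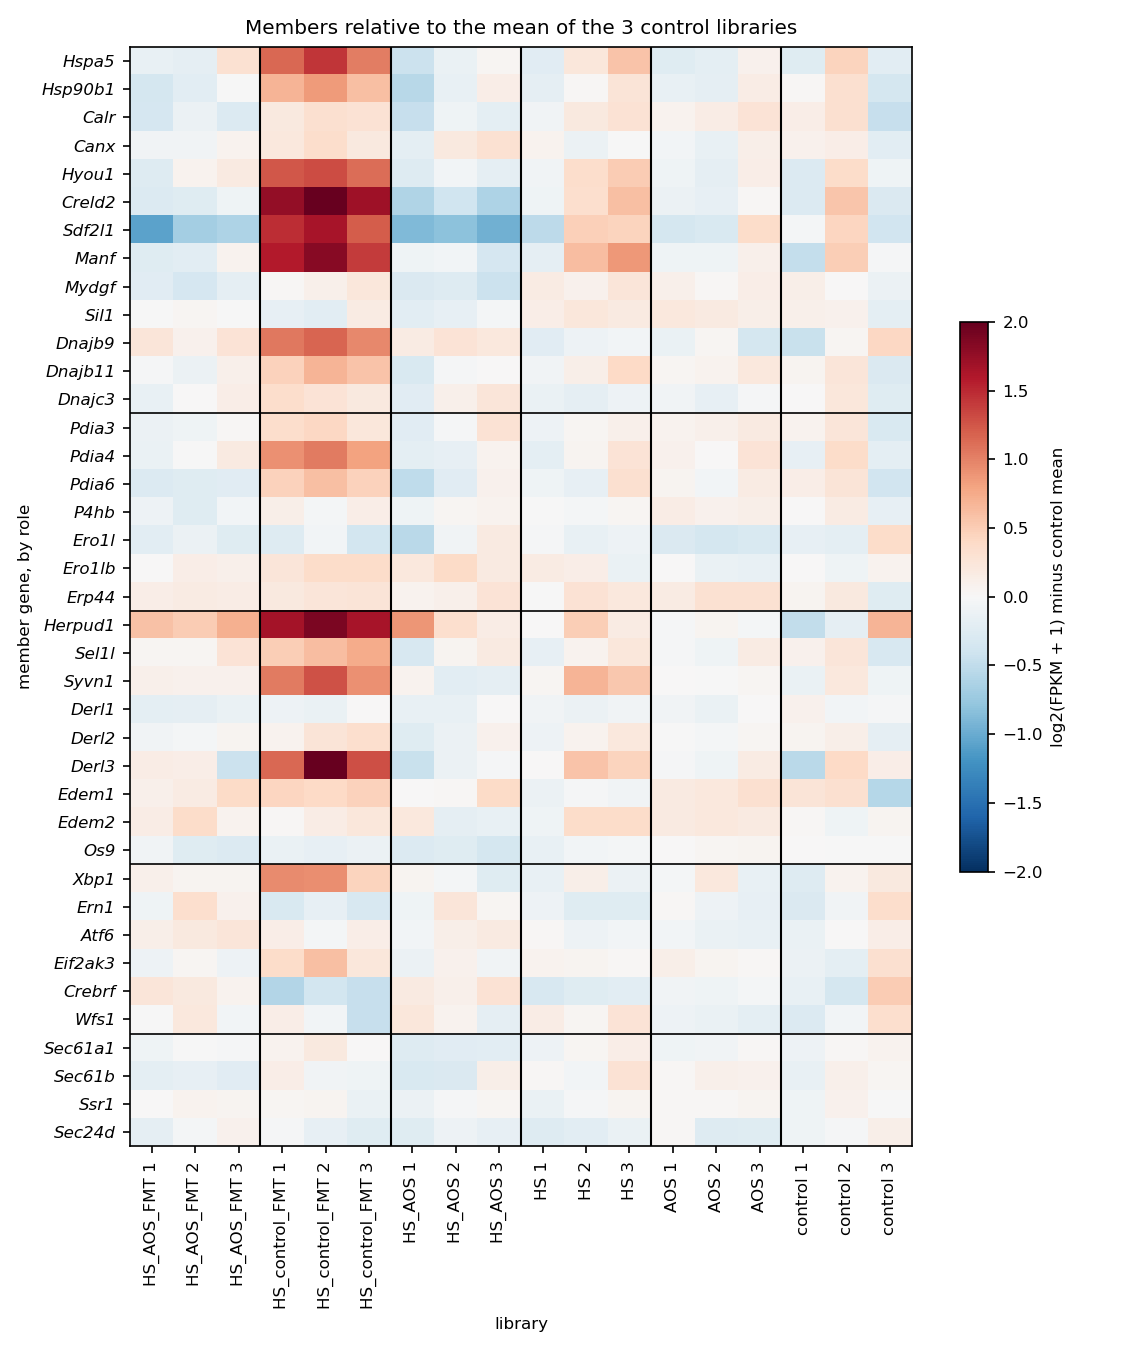
Level of each of the 39 members (vertical axis, grouped by role from chaperones at the top to translocation and export at the bottom) in each library (horizontal axis), as log2(FPKM + 1) minus the mean of the 3 control libraries. The 3 HS_control_FMT columns are red for 32, 28 and 31 of the 39 members, most deeply for Creld2, Manf, Sdf2l1, Herpud1 and Derl3.

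By separation of the libraries, 21 members lay higher in HS_control_FMT than in HS with no overlap (6.53% of tested genes did), 1 lay lower (18.8% did) and 17 overlapped. The count of 10 calls fell to 2 without HS 1, 5 without HS 2, 3 without HS_control_FMT 1, 2 without HS_control_FMT 2 and 6 without HS_control_FMT 3, and was 3 with both groups fitted alone and 6 with no filter on low levels. Creld2 and Dnajb9 kept their call under all 16 alternatives, and Herpud1 under 14, losing it without HS 1 or HS_control_FMT 2 (limma adjusted p up to 0.0704). Sdf2l1 lost its call whichever of the 6 libraries was left out, Hspa5, Manf and Syvn1 in 5 of the 6 cases, and Syvn1 in 10 of the 16 alternatives. Xbp1, Hyou1 and Pdia4 kept their calls in 2 of those 6 cases. With both groups fitted alone these 3 genes did not pass (limma adjusted p = 0.112, 0.0952 and 0.0749). Without the 3 adrenal-rich libraries 11 members were called. Markers of distal convoluted and connecting tubule (5 genes, all detected) summed to 281 to 348 FPKM in HS_control_FMT, against 371 to 531 FPKM in HS, and podocyte markers (6 genes, all detected) to 44.1 to 65.6 FPKM in HS_control_FMT, against 66.0 to 73.9 FPKM in HS. None of these marker genes was called in this comparison, and their part in the result was not tested.

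The 2 transplants were then set against each other, HS_AOS_FMT with HS_control_FMT. In HS_AOS_FMT kidneys 15 of the 39 members were lower and 1 was higher, together 41.0% of the members against 3.99% of all tested genes. Over all tested genes the calls ran mostly the other way, 2.9% higher and 1.09% lower (359 and 135 genes), with 154 and 129 after quantile normalization and 287 and 207 with the GC and length trend removed. The lower ones were 9 of 13 chaperones and cofactors, 2 of 7 oxidative folding genes, 3 of 9 degradation genes and Xbp1. The median member was -0.28 on the log2 scale, while the median of all tested genes was 0.07.

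Sdf2l1 showed the greatest fall of the 39 members in this comparison, to 4.42 ± 0.881 FPKM in HS_AOS_FMT kidneys, against 24.4 ± 3.80 FPKM in HS_control_FMT kidneys (SD, n = 3 each), a log2 change of -2.23 (SE 0.27, limma adjusted p = 0.00131). Creld2 averaged 19.4 ± 1.41 FPKM in HS_AOS_FMT and 81.9 ± 9.5 FPKM in HS_control_FMT kidneys, a change of -2.02 (SE 0.20, limma adjusted p = 2.21e-04). Manf averaged 26.6 ± 3.32 FPKM in HS_AOS_FMT and 90.8 ± 13.2 FPKM in HS_control_FMT kidneys, a change of -1.73 (SE 0.24, limma adjusted p = 0.00341). The ratios of means were 0.181, 0.237 and 0.293, and no HS_AOS_FMT library came near an HS_control_FMT library for any of these genes. Of the BiP system itself, Hyou1 fell by 1.23 (SE 0.17, limma adjusted p = 0.00341), Hspa5 by 1.20 (SE 0.22, limma adjusted p = 0.00983) and Dnajb9 by 0.86 (SE 0.16, limma adjusted p = 0.0103) on the log2 scale. Hsp90b1 fell by 0.90 (limma adjusted p = 0.0189) and Dnajb11 by 0.58 (limma adjusted p = 0.0323).

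Mydgf followed another pattern over the groups than the genes above. It had 46.1, 43.0 and 47.8 FPKM in HS_AOS_FMT kidneys, against 55.1, 58.2 and 63.8 FPKM in HS_control_FMT kidneys, a change of -0.36 (SE 0.08, limma adjusted p = 0.0269). Its levels were 44.0, 45.1 and 39.8 FPKM in HS_AOS, 61.1, 57.8 and 64.3 FPKM in HS, 58.3, 55 and 59.9 FPKM in AOS and 58.9, 54.3 and 50.0 FPKM in control kidneys. The low groups for Mydgf were therefore HS_AOS_FMT and HS_AOS, and HS_control_FMT lay with HS, AOS and control. Calr, Canx and Dnajc3 did not pass, at -0.51 (95% interval -0.85 to -0.16), -0.28 (-0.54 to -0.01) and -0.28 (-0.54 to -0.02), and Sil1 was at 0.08 (-0.13 to 0.29). Calr, lower without overlap, did pass in some alternatives. These were the fits without the 3 adrenal-rich libraries (limma adjusted p = 0.0354), with both groups alone (0.0358) and with control 3 left out (0.0129).

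Of the oxidative folding genes, Pdia4 averaged 34.8 ± 4.01 FPKM in HS_AOS_FMT and 66.1 ± 5.18 FPKM in HS_control_FMT kidneys, a change of -0.91 (SE 0.15, limma adjusted p = 0.00642). Pdia6 averaged 83.1 ± 1.22 FPKM in HS_AOS_FMT and 141 ± 7.92 FPKM in HS_control_FMT kidneys, a change of -0.75 (SE 0.17, limma adjusted p = 0.0257). Pdia3, P4hb and Ero1lb lay lower without overlap but did not pass, at -0.39, -0.20 and -0.25. The same held for Erp44, at 69.1 ± 0.833 FPKM in HS_AOS_FMT and 73.0 ± 1.56 FPKM in HS_control_FMT kidneys. Ero1l overlapped and did not pass. In degradation, Derl3 averaged 1.04 ± 0.436 FPKM in HS_AOS_FMT and 4.98 ± 1.97 FPKM in HS_control_FMT kidneys (-1.53, SE 0.26, limma adjusted p = 0.00741). Herpud1 averaged 175 ± 12.6 FPKM in HS_AOS_FMT and 385 ± 36.7 FPKM in HS_control_FMT kidneys (-1.13, SE 0.24, limma adjusted p = 0.0209). For Syvn1 the means were 19.0 ± 0.137 FPKM in HS_AOS_FMT and 38.7 ± 5.07 FPKM in HS_control_FMT kidneys (-0.98, SE 0.14, limma adjusted p = 0.00409). Sel1l had a change of -0.50 and missed the threshold (limma adjusted p = 0.0803), and Derl1, Derl2, Edem1, Edem2 and Os9 ran between -0.24 and 0.07.

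Xbp1 averaged 53.3 ± 0.902 FPKM in HS_AOS_FMT and 88.1 ± 16.1 FPKM in HS_control_FMT kidneys, a change of -0.70 (SE 0.14, limma adjusted p = 0.0190). Crebrf, the one member that rose, averaged 11.4 ± 0.757 FPKM in HS_AOS_FMT and 6.93 ± 0.587 FPKM in HS_control_FMT kidneys (0.64, SE 0.15, limma adjusted p = 0.0340). Eif2ak3, lower without overlap, just missed the threshold, at -0.45 (limma adjusted p = 0.0537), and passed after quantile normalization, with the GC and length trend removed and without the 3 adrenal-rich libraries (limma adjusted p between 0.00329 and 0.0395). Ern1, higher in HS_AOS_FMT without overlap, was at 0.38 (limma adjusted p = 0.176). Atf6 was at 0.11 (95% interval -0.08 to 0.30), and neither of these sensors differed beyond the threshold. Wfs1 was at 0.18, and the 4 translocation and export genes ran between -0.19 and 0.10.

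**Figure D3:**
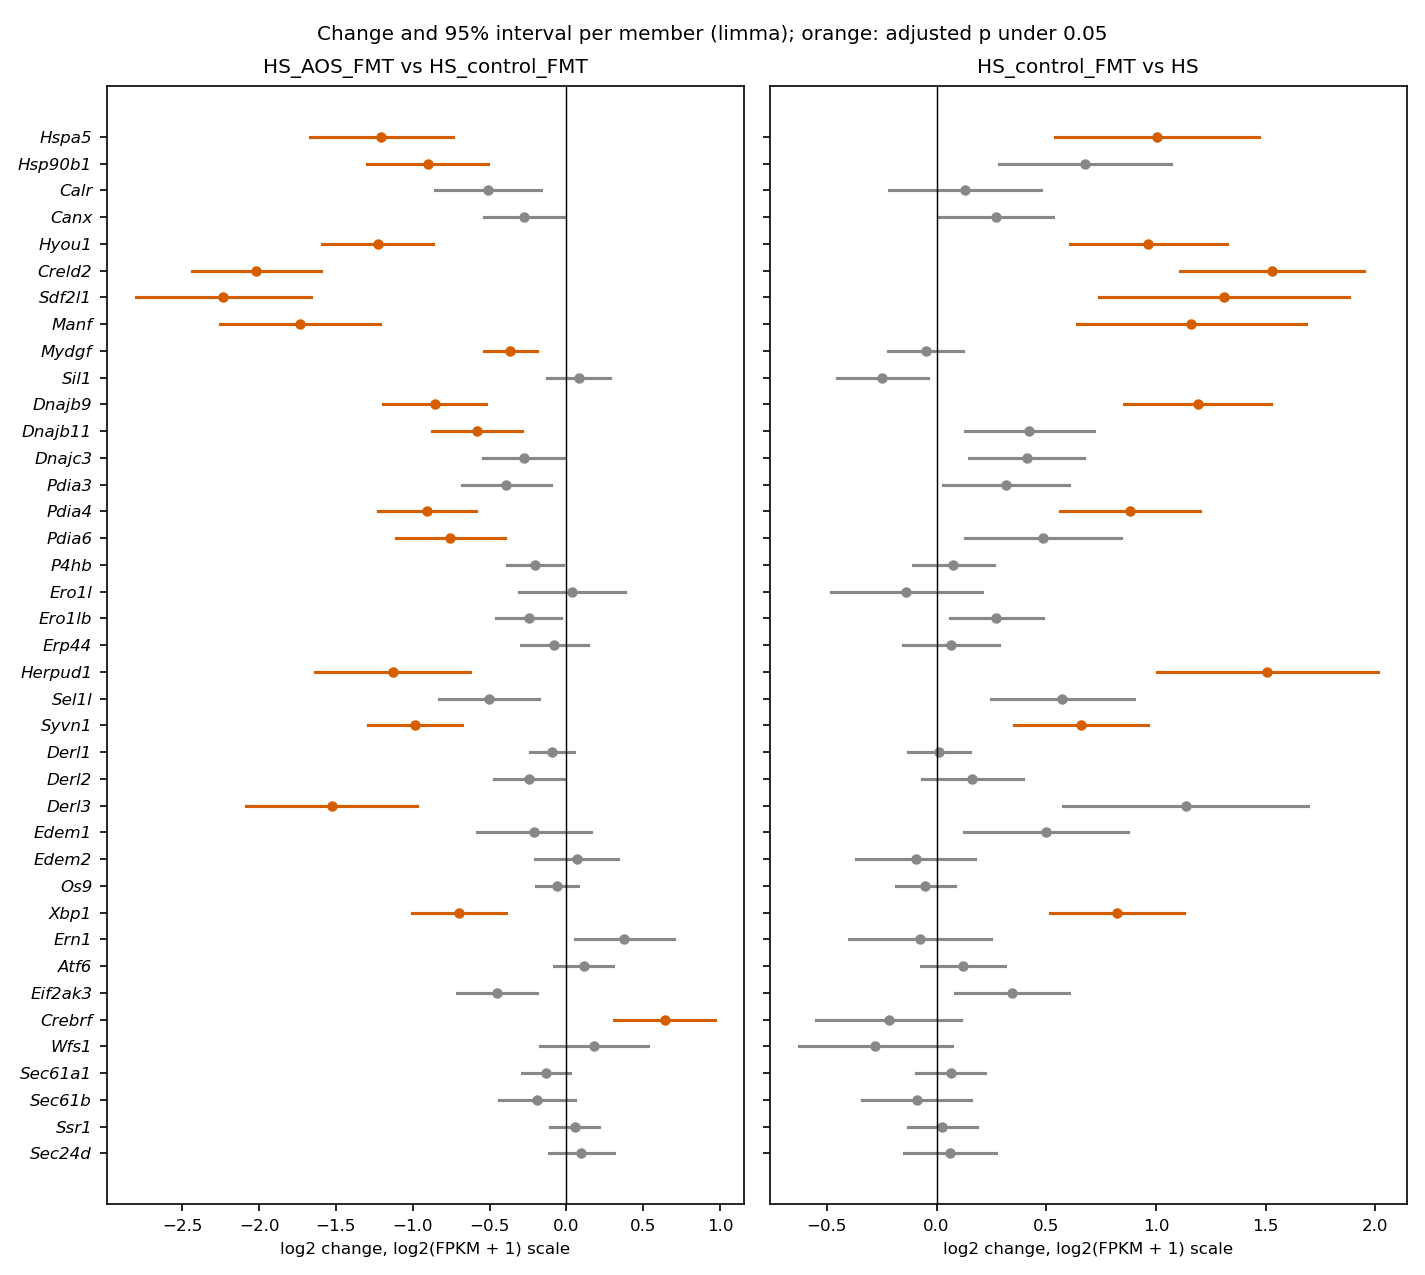
Log2 change with its 95% interval for the 39 members, on the log2(FPKM + 1) scale, in HS_AOS_FMT vs HS_control_FMT (left) and HS_control_FMT vs HS (right), with members past the threshold in orange. On the left 15 members lie below 0 and Crebrf above it in orange, and on the right 10 lie above 0. Both panels hold the same HS_control_FMT libraries.

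By separation of the libraries, 29 members lay lower in HS_AOS_FMT than in HS_control_FMT with no overlap (7.56% of tested genes did), 2 lay higher (21.8% did), and 8 overlapped. The count of 16 calls became 9 without HS_AOS_FMT 1, 7 without HS_AOS_FMT 2, 10 without HS_control_FMT 1 and 7 without HS_control_FMT 2. Creld2, Sdf2l1, Manf, Hyou1, Pdia4 and Syvn1 kept their call under all 16 alternatives and Derl3 under all 15 that tested it. Crebrf, Dnajb11 and Pdia6 lost theirs whichever of the 6 libraries was left out, with limma adjusted p up to 0.139, 0.153 and 0.107. Herpud1, Hsp90b1, Xbp1 and Mydgf kept theirs in 2 of those 6 cases, and Hspa5 and Dnajb9 in 4. The limma adjusted p reached 0.104 for Herpud1 and 0.0898 for Hsp90b1 and Xbp1. Mydgf lost its call after quantile normalization, with the GC and length trend removed (limma adjusted p = 0.155), and without the 3 adrenal-rich libraries, where Xbp1 lost its call too (limma adjusted p = 0.0535). HS_AOS_FMT 2 is one of those libraries, and 6 of the 8 adrenal cortex markers lay higher in HS_AOS_FMT without overlap, none of them called. Without the 3 adrenal-rich libraries the members' count was again 15 lower and 1 higher. Collecting duct markers (9 genes, all detected) summed to 178.7 to 209.3 FPKM in HS_AOS_FMT and 209.6 to 220.5 FPKM in HS_control_FMT. These sums did not overlap, and their part in the result was not tested.

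Against control kidneys, HS_control_FMT had 14 members higher and none lower (35.9%, against 3.27% of tested genes, 1.47% as higher and 1.8% as lower). They were the 10 members raised against HS together with Hsp90b1 (0.71), Dnajb11 (0.57), Sel1l (0.62) and Derl3 (1.48). The sensor Eif2ak3 did not pass with all libraries in the main fit. It passed as higher after quantile normalization and with the GC and length trend removed, alone or with a replicate block. It also passed without the 3 adrenal-rich libraries and without control 3 (limma adjusted p between 0.00495 and 0.0195 in all of these). The changes of greatest size were Creld2 at 1.81 (limma adjusted p = 1.79e-04), Herpud1 at 1.73 (limma adjusted p = 0.00149) and Manf at 1.60 (limma adjusted p = 0.00332). Over all tested genes the split of 182 higher and 223 lower turned to 282 and 213 with quantile normalization and to 368 and 293 with the GC and length trend removed. The 10 shared members kept their call with any library of these groups left out, but no member passed with both groups fitted alone (limma adjusted p = 0.0912 for Creld2). Hsp90b1, Dnajb11 and Sel1l lost their calls in 5 of the 6 fits with 1 library left out, as well as without the 3 adrenal-rich libraries (limma adjusted p = 0.169, 0.0734 and 0.131). Calb1 and Slc8a1 of the distal tubule fell in this comparison (-1.12 and -0.99 on the log2 scale), as did Egf of the thick ascending limb (-0.68) and Avpr2 of the collecting duct (-0.82), and their part in the result was not tested.

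Set against HS_AOS, in which AOS was given directly, HS_control_FMT had 18 members higher and 1 lower (48.7%, against 9.05% of tested genes, 2.69% as higher and 6.36% as lower). Beyond the members already named, Mydgf (0.45), Pdia6 (0.73), Eif2ak3 (0.43, limma adjusted p = 0.0417) and the translocon subunit Sec61a1 (0.33) were among those higher, and Crebrf was the one lower (-0.67). Sdf2l1 averaged 24.4 ± 3.80 FPKM in HS_control_FMT and 4.04 ± 0.245 FPKM in HS_AOS kidneys, a ratio of 6.05. The call of Eif2ak3 was lost without HS_control_FMT 1 or 2 or any HS_AOS library, with limma adjusted p up to 0.143. Marker sums of HS_control_FMT and HS_AOS did not overlap for thick ascending limb (7 genes, all detected), at 1205 to 1883 FPKM in HS_control_FMT and 773 to 994 FPKM in HS_AOS, for podocytes, at 44.1 to 65.6 FPKM in HS_control_FMT and 68.5 to 81.4 FPKM in HS_AOS, and for distal convoluted and connecting tubule, at 281 to 348 FPKM in HS_control_FMT and 353 to 432 FPKM in HS_AOS. Summed perirenal fat markers (7 genes, Lep under 1 FPKM in every library) did not overlap either. They stood at 93.0 to 526 FPKM in HS_control_FMT and 16.7 to 54.6 FPKM in HS_AOS. Of the kidney cell markers, Umod of the thick ascending limb (1.25) and Aqp1 (0.48) were called higher in HS_control_FMT, and Slc8a1 of the distal tubule (-0.82), Foxi1 (-0.49) and Cubn (-0.46) lower. Their part in the result was not tested.

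Across the 4 comparisons that hold HS_control_FMT and so share its libraries, 10 members passed in all (Creld2, Dnajb9, Herpud1, Hspa5, Hyou1, Manf, Pdia4, Sdf2l1, Syvn1 and Xbp1), and 20 in none, among them Calr, Canx, P4hb, Pdia3, Ern1 and Atf6.

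Motif and call were set side by side as counts. Of the 11 members with ERSE or ERSE-II, 7 were called in HS_AOS_FMT vs HS_control_FMT (Hspa5, Hsp90b1, Creld2, Pdia6, Herpud1, Syvn1 and Derl3) and 4 were not (Calr, Canx, Dnajc3 and Ero1lb). Of the 22 members with a promoter and neither motif, 7 were called. In HS_control_FMT vs HS the counts were 4 of 11 and 4 of 22.

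Diet and STZ alone did not move the pathway past the threshold. In HS against control kidneys 0 of 39 members were called by limma, where 0.0646% of all tested genes (8) were, and 1 member was higher with an unadjusted p below 0.05, as were 3.33% of tested genes. That member was Syvn1, at 24.5 ± 5.62 FPKM in HS and 17.8 ± 2.53 FPKM in control kidneys, a change of 0.42 (95% interval 0.11 to 0.72, limma unadjusted p = 0.0108). Hspa5 differed by 0.19 (-0.27 to 0.66), Creld2 by 0.28 (-0.14 to 0.70), Herpud1 by 0.22 (-0.28 to 0.73) and Xbp1 by -0.05 (-0.36 to 0.25). Each of these intervals includes changes of either sign.

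AOS given without diet and STZ brought no member past the threshold either. In AOS against control kidneys 0 of 39 were called (0.0646% of tested genes were), 1 was higher with an unadjusted p below 0.05 in limma (Erp44, 0.26; 1.28% of tested genes were), and the median member differed by 0.00, where the median of all tested genes was -0.09. Hspa5 averaged 202 ± 25.6 FPKM in AOS and 223 ± 63.2 FPKM in control kidneys, a change of -0.12 (95% interval -0.58 to 0.35). Creld2 averaged 21.2 ± 1.57 FPKM in AOS and 23.4 ± 8.72 FPKM in control kidneys (-0.08, -0.50 to 0.34). Removal of the GC and length trend and quantile normalization raised the median of all genes here by 0.11 and 0.10, and with it the members with a positive change to 32 and 30 of 39, against 19.

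With AOS given on top of diet and STZ, 2 chaperone-list members were called lower. In HS_AOS against HS kidneys Creld2 averaged 15.2 ± 1.36 FPKM in HS_AOS and 28.1 ± 6.84 FPKM in HS kidneys, a change of -0.82 (SE 0.20, limma adjusted p = 0.0442). Mydgf averaged 43.0 ± 2.77 FPKM in HS_AOS and 61.1 ± 3.24 FPKM in HS kidneys, a change of -0.50 (SE 0.08, limma adjusted p = 0.0150). These 2 are 5.13% of the members, against 2.3% of tested genes (1.2% as lower). Over all tested genes the split of 136 higher and 149 lower became 279 and 198 with quantile normalization, and 11 and 0 with the GC and length trend removed. Sdf2l1 averaged 4.04 ± 0.245 FPKM in HS_AOS and 9.67 ± 3.67 FPKM in HS kidneys and just missed (-1.01, limma adjusted p = 0.0586). The count was 0 without HS 2, HS 3 or HS_AOS 3, 1 without HS_AOS 2 and 6 without HS 1. It was 0 once the GC and length trend or the 3 adrenal-rich libraries were removed. Creld2 was the one called member for which all 3 HS_AOS libraries lay below the other 15, with Sec61a1 beside it uncalled (0.468% of tested genes showed this). Marker sums did not overlap for thick ascending limb, at 773 to 994 FPKM in HS_AOS and 1067 to 1476 FPKM in HS, or for tubular injury, at 518 to 561 FPKM in HS_AOS and 585 to 640 FPKM in HS. None of these marker genes was called, and their part in the result was not tested.

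With the AOS-labelled transplant, Mydgf alone was called lower than in HS. It averaged 45.6 ± 2.44 FPKM in HS_AOS_FMT and 61.1 ± 3.24 FPKM in HS kidneys (-0.41, SE 0.08, limma adjusted p = 0.0385). That is 1 of 39 members, or 2.56%, where 0.977% of tested genes were called (0.533% as lower), and the call was lost when any of the 6 libraries was left out. Hspa5 differed by -0.20 (95% interval -0.66 to 0.27), Creld2 by -0.49 (-0.91 to -0.07), Sdf2l1 by -0.92 (-1.49 to -0.35) and Herpud1 by 0.38 (-0.13 to 0.88). Against control kidneys, HS_AOS_FMT had 0 of 39 members called by limma (0.46% of tested genes were), with 1 higher (8.62% of tested genes) and 4 lower (6.82%) where the unadjusted p was below 0.05. Without control 3, Herpud1 (0.94) and Crebrf (0.42) were called higher there. Hspa5 differed there by 0.00 (-0.47 to 0.46), Creld2 by -0.20 (-0.62 to 0.22) and Xbp1 by 0.07 (-0.23 to 0.38).

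HS_AOS against control had 2 members lower, Mydgf (-0.33, limma adjusted p = 0.0415) and the lectin Os9 (-0.29, limma adjusted p = 0.0287), or 5.13% against 2.87% of tested genes (1.26% as lower). Os9 averaged 56.1 ± 2.32 FPKM in HS_AOS and 68.8 ± 0.630 FPKM in control kidneys. Both calls were lost without HS_AOS 2, HS_AOS 3, control 1 or control 2, and 6 members were called without control 3, with Herpud1 (0.79) and Crebrf (0.45) among them as higher. No member passed in the test of whether the AOS effect differed with and without diet and STZ (0 of 39, against 0.0727% of tested genes), in which 2 members were higher (10.9% of tested genes) and 8 lower (4.05%) where limma's unadjusted p was below 0.05. Mydgf came nearest, at -0.58 (95% interval -0.83 to -0.34, limma adjusted p = 0.103), and it passed without HS_AOS 1 (limma adjusted p = 0.0479) or with no filter (0.0188). Over the 6 groups together, limma's F test called 15 members (38.5%), against 8.21% of tested genes, comprising 9 chaperones and cofactors, Pdia4, Herpud1, Syvn1, Derl3, Os9 and Xbp1.

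Other genes of the ER, in 7 lists of 138 genes of which 135 were tested, were called in smaller shares than the members in the comparisons that hold HS_control_FMT. Members and lists were chosen with earlier results of these data known, so these shares are no test of one against the other. In HS_control_FMT vs HS 1 of the 135 was called (0.741%, near the 0.751% of all tested genes). It was Chac1, a glutathione-degrading enzyme and ATF4 target, at 6.40 ± 2.48 FPKM in HS_control_FMT and 1.93 ± 0.992 FPKM in HS kidneys (1.35, limma adjusted p = 0.0439). No further ER chaperone or folding enzyme (0 of 24), N-glycosylation gene (0 of 17), degradation gene (0 of 20), translocation or signal peptidase gene (0 of 18), COPII or cargo gene (0 of 24) or stress transducer (0 of 12) passed there.

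In HS_AOS_FMT vs HS_control_FMT 8 of the 135 passed (5.93%, against 3.99% of all tested genes), 7 of them lower. In degradation these were the J-protein Dnajb2 (-0.85), the ubiquitin-conjugating enzyme Ube2g2 (-0.71) and Ubxn4 (-0.42). Dnajb2 averaged 17.4 ± 2.28 FPKM in HS_AOS_FMT and 32.2 ± 2.46 FPKM in HS_control_FMT kidneys (limma adjusted p = 0.00341). The folding factor Erp29 (-0.48), the oligosaccharyltransferase subunit Dad1 (-0.37), the cargo lectin Lman2 (-0.29) and Chac1 (-1.98, limma adjusted p = 0.00341) were lower too, and the receptor Vldlr was higher (0.34). In HS_control_FMT vs control, 7 of 135 were higher and 1 lower, together 5.93% against 3.27% of all tested genes. Of 20 tested genes on the PERK and ATF4 list 4 rose, Chac1 (1.99), Atf3 (2.96), Atf4 (0.81) and the phosphatase subunit Ppp1r15b (0.51). Dnajb2 (0.82), Ubxn4 (0.37) and the sugar-nucleotide enzyme Uap1 (1.03) rose as well, and the disulfide isomerase Pdia5 fell (-0.44). Atf3 varied widely within HS_control_FMT, at 17.2 ± 10.9 FPKM, against 1.38 ± 1.55 FPKM in control kidneys (SD, n = 3 each). In HS_control_FMT vs HS_AOS 21 of 135 passed (15.6%, against 9.05%), 17 of them higher, with Chac1 (2.10), Atf4 (0.96), Atf3 (2.92), Dnajb2 (1.02), Ube2g2 (0.69), Uap1 (0.85), Cnpy2 (0.40) and Lman2 (0.37) among these, and Vldlr (-0.37), Arfgap3 (-0.57) and Creb3l2 (-0.40) among the 4 lower.

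The comparisons without HS_control_FMT called few of these genes. In HS_AOS vs HS the chaperone cofactor Cnpy2 (-0.38), Dad1 (-0.42), Dnajb2 (-0.51) and Lman2 (-0.29) fell and Vldlr rose (0.33), 5 of 135 or 3.70%, against 2.3% of all tested genes. In HS_AOS_FMT vs HS Erp29 (-0.48) and the oligosaccharyltransferase subunits Dad1 (-0.44) and Ost4 (-0.41) fell, 2.22% of the 135 against 0.977% of all tested genes. HS_AOS vs control had Cnpy2, Dad1 and Ost4 lower (-0.38, -0.39 and -0.31) and Ppp1r15b higher (0.40), 2.96% against 2.87%. HS_AOS_FMT vs control had Ost4 lower (-0.42) and Ppp1r15b higher (0.48), 1.48% against 0.46%. None of the 135 passed in HS vs control (5 higher and 2 lower where limma's unadjusted p was below 0.05, as were 3.33% and 3.29% of all tested genes) or in AOS vs control (1 higher and 4 lower, against 1.28% and 6%).

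**Figure D4:**
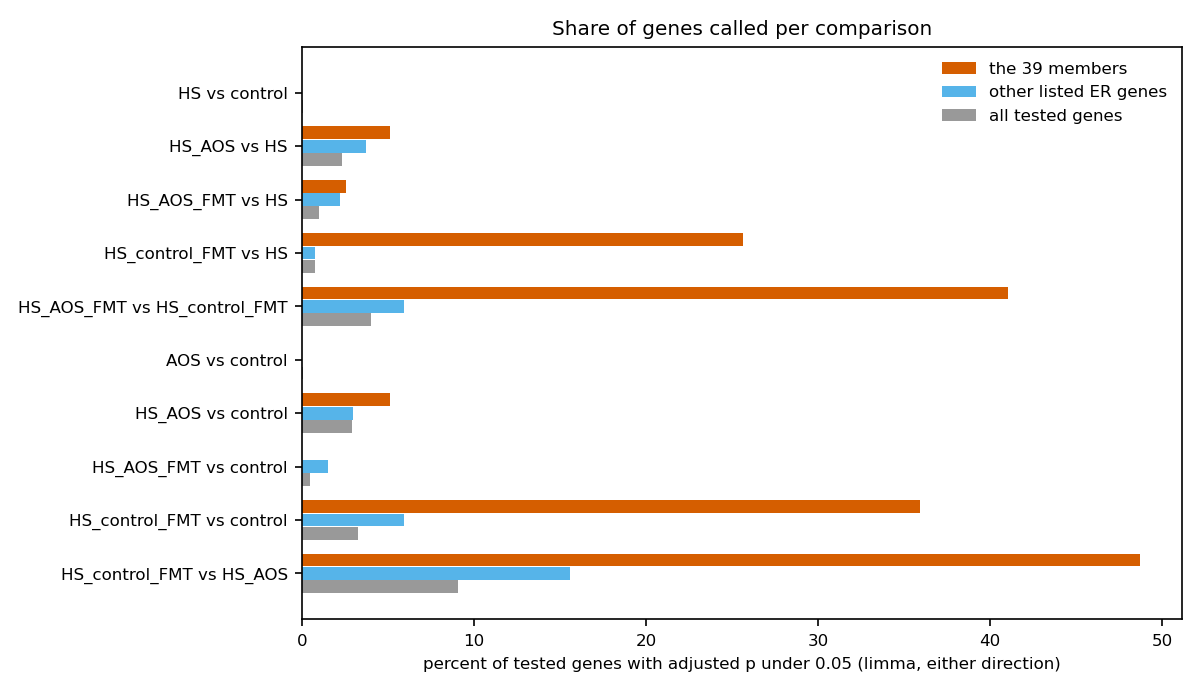
Percent of tested genes called in each of 10 comparisons (limma adjusted p under 0.05, either direction; bars start at 0), for the 39 members, the 135 other listed ER genes and all 12385 tested genes. The members stand above the other bars in the 4 comparisons that hold HS_control_FMT, at 25.6% to 48.7%, and no bar is visible for HS vs control or AOS vs control. They also stand above the other bars, by less, in HS_AOS vs HS, HS_AOS_FMT vs HS and HS_AOS vs control. Members and lists were chosen with earlier results of these data known.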

How the data were processed

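The authors deposited gene levels in FPKM for each library, with 2 decimals and without counts. The unit was inferred, since library sums weighted by transcript length varied less (coefficient of variation 1.6%) than plain sums (4.29%). Per the submitters' processing notes Bowtie 0.12.2 and mm10 were used, while quantifier, annotation, strand and filters are not given in the sources used. Without strand, reads of overlapping genes cannot be told apart.

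From these values log2(FPKM + 1) was computed, and a gene was tested if 3 or more of the 18 libraries reached 1 FPKM (12385 tested, 7160 not). All 18 libraries entered a single limma fit (3.58.1, in R 4.3.3; trended and robust variance, a mean for each group, residual df 12). Adjustment was Benjamini and Hochberg's over all tested genes of a comparison, at a threshold of 0.05, and every p in the text is limma's. Changes are on the log2(FPKM + 1) scale, which understates those of low genes. The test was tried on simulated data first. The members and lists were chosen with earlier results of these data known. Given with every library's value were members past the threshold in HS_control_FMT vs HS or HS_AOS_FMT vs HS_control_FMT, and Xbp1, Ern1, Atf6 and Eif2ak3, while the other lists' called genes were named up to the 4 of smallest p in a list and comparison.

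Same-numbered libraries deviated together in HS vs control alone (correlations 0.19, 0.24 and 0.12 over genes), where a replicate block also called 0 members. Alternatives were that block, quantile normalization, a pseudocount of 0.1, no filter, at least 5 FPKM, the compared groups alone, removal of a spline in GC content and length from each library (99.0% of tested genes and all 39 members had both), omission of 3 adrenal-rich libraries (control 3, HS 3, HS_AOS_FMT 2), each library left out in turn and, chosen after seeing the data, control 3 left out of the fit. Where 2 libraries of a group remained, they were assumed to vary like the other groups. Upstream sequences and positions are RefSeq's (GRCm38.p6).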

Additional observations from a re-analysis of the deposited data

How the results depend on the processing

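No member changed sign in any alternative where it had been called. Members called, with 1 library left out, numbered 2 to 7 in HS_control_FMT vs HS (10 with all), 7 to 13 in HS_AOS_FMT vs HS_control_FMT (16), 11 to 15 in HS_control_FMT vs control (14), 15 to 18 in HS_control_FMT vs HS_AOS (19), 0 to 6 in HS_AOS vs HS (2), 0 to 1 in HS_AOS_FMT vs HS (1), 0 to 6 in HS_AOS vs control (2), 0 to 2 in HS_AOS_FMT vs control (0), 0 to 1 in the AOS effect in HS minus that in control (0) and 10 to 24 over the 6 groups (15), the 24 without control 3. With the compared groups alone, 3 were called in HS_control_FMT vs HS, 0 in HS_control_FMT vs control, 0 in HS_AOS vs HS, 0 in HS_AOS_FMT vs HS and 0 in HS_AOS vs control. With no filter, 6 were called in HS_control_FMT vs HS, 1 in HS_AOS vs HS, 0 in HS_AOS_FMT vs HS and 1 in the difference of the AOS effects. With GC content and length regressed out, and with a replicate block on top, 0 were called in HS_AOS vs HS, 0 in HS_AOS_FMT vs HS and 0 in HS_AOS vs control. The replicate block alone left 1 in HS_AOS vs HS, 0 in HS_AOS_FMT vs HS and 0 in HS_AOS vs control. In the other comparisons it gave a count within 1.5 times that without it (10 in HS_control_FMT vs HS). Same-numbered libraries deviated together in HS vs control alone, and no label says that the numbers mark pairs. Quantile normalization gave 0 in HS_AOS_FMT vs HS and 1 in HS_AOS vs control. Omission of the adrenal-rich libraries gave 0 in HS_AOS vs HS, 0 in HS_AOS_FMT vs HS and 5 in HS_AOS vs control, and omission of control 3 from the fit, chosen after seeing the data, gave 7 in HS_AOS vs HS and 2 in HS_AOS_FMT vs HS. The cause of these moves was not tested, beyond the fewer libraries in some fits. Depth is unknown, so no limit of detection can be given for Derl3 and Ern1, the lowest members.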
